A study of Homo sapiens with 6 samples.

Results

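RNA of MHC class I and antigen processing genes was examined in 4 cell lines of atypical teratoid rhabdoid tumor (AT/RT), an aggressive brain tumor of young children that lacks the chromatin remodelling subunit SMARCB1. The 9 genes were chosen by name: the heavy chains HLA-B, HLA-C, HLA-E and HLA-F, their light chain B2M, the peptide transporter subunits TAP1 and TAP2, the loading factor TAPBP and the transactivator NLRC5. They were 9 of the 36532 genes in the deposited tables, and all 9 were among the 16035 genes with at least 1 TPM (reads per transcript length, scaled to the same total in every library) in a cell line. The lines were CHLA 02 and CHLA 05, with 1 library each, and CHLA 04 and CHLA 06, with 2 technical replicates each, 6 libraries in all. Every line was grown untreated in the same way, in DMEM:F12 medium with 20 ng/mL EGF, 20 ng/mL basic FGF and 2% B-27 supplement. The study describes the lines as growing in suspension and as lacking SMARCB1 expression. The technical replicates measure only the spread of library making and sequencing, and CHLA 02 and CHLA 05 had no replicate. Each line is 1 biological sample, so p-values between lines could not be computed and none is given. No control line and no cells with SMARCB1 restored were among the libraries.

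MHC class I molecules display short peptides from inside the cell to cytotoxic T cells and natural killer cells. A heavy chain pairs with β2-microglobulin, proteasomes cut the peptides, the TAP transporter carries them into the endoplasmic reticulum, and tapasin holds the empty molecule until a peptide is loaded. Transcription of these genes is driven by NLRC5, which acts on a conserved set of upstream elements called the SXY module, and by interferon and NF-κB signals. Brain cells and their tumors are known for low class I expression that interferon can raise.

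The smallest library, the first CHLA 04 replicate, had 10265899 reads on transcripts and the largest 20520229, and 1 read on a transcript of 1000 bases was worth 0.117 to 0.236 TPM. SMARCB1 RNA was detected in every library, at 13.5 to 26.2 TPM, and protein was not measured in these libraries. Among the markers of line identity, VIM, an intermediate filament gene of glial and mesenchymal cells, was high in all libraries, and SOX2, a neural stem cell factor, was at most 4.03 TPM. The neuronal tubulin gene TUBB3 was at 205 to 455 TPM under ENSG00000258947 and at 3.55 to 30.4 TPM under ENSG00000198211. NES, a neural stem cell marker, was at 5.21 to 27.6 TPM. PAX6, a neuroectodermal marker, was at 15.8 to 36.9 TPM in CHLA 02, CHLA 04 and CHLA 05 and at 0.604 and 0.937 TPM in CHLA 06. Markers of leukocytes were mostly at or near 0, with CD3E and AIF1 at 0 in every library and PTPRC at no more than 0.224 TPM. Of the 12 genes of that list only CD68 and FCER1G reached 1 TPM in a line, beside 16035 of all 36532 genes.

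The upstream stretches of HLA-B, HLA-C and B2M are shown because HLA-B and HLA-C, neighbours with similar regulatory sequence, had different orders over the lines, while B2M must pair with both. Each stretch runs from 200 to 51 bases before the RefSeq start of transcription on GRCh38.p14, and none of it lies in an exon of its own gene in the files. Capitals mark matches, on either strand, to CCAAT (the Y box core), TGACG (a CREB-type core, as in the X2 box), GAAANNGAAA (the core of interferon-responsive elements) and the NF-κB consensus.
HLA-B, chr6:31357230-31357379, minus strand: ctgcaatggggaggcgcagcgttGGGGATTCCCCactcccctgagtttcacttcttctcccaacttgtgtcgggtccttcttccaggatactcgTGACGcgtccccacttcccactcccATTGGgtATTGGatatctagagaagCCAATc
HLA-C, chr6:31272143-31272292, minus strand: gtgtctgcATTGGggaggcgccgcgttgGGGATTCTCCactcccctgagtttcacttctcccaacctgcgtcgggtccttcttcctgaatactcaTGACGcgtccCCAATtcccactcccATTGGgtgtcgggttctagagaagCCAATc
B2M, chr15:44711317-44711466, plus strand: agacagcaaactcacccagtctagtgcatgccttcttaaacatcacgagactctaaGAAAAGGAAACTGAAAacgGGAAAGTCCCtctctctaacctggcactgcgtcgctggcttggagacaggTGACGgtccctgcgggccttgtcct

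Over these 150 bases HLA-B and HLA-C were 86.7% identical by edit distance, whereas B2M was 39.3% identical to HLA-B and 41.3% to HLA-C. RefSeq promoter windows were found for 7 of the 9 genes, all but HLA-E and NLRC5. From 200 to 51 bases before the RefSeq start, 150 bases in TAP1 and in TAPBP and 105 in HLA-F lie in exons of the own gene. The windows of these genes are therefore not wholly upstream of the transcripts measured here. In the 250 bases before the start, GAAANNGAAA was found in HLA-F, B2M, TAP1, TAP2 and TAPBP and in 3.02% of all 35097 windows. Variants of this pattern were not searched, so the lack of a match in HLA-B and HLA-C does not show that they lack such an element. CCAAT was found in HLA-B, HLA-C, HLA-F, B2M and TAP1 and in 32.0% of all windows. TGACG was found in HLA-B, HLA-C, B2M and TAP2, against 21.2% of all windows, and the NF-κB consensus in HLA-B, HLA-C, B2M, TAP1 and TAPBP, against 9.95%. The pairs of NF-κB matches in HLA-B and of GAAANNGAAA matches in B2M overlap each other. These matches describe letters of the reference and say nothing of binding in the 4 lines.

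The 9 genes had reads in every library, and all 9 had their lowest line mean in CHLA 04. B2M was the highest of the 9 in every library, between the percentiles 93.4 and 99.1 of the genes above 0 TPM in a library. HLA-C (81.1 to 98.9) and TAPBP (82.2 to 93.6) came next, HLA-C above TAPBP in CHLA 02 and CHLA 06 and TAPBP above HLA-C in CHLA 04 and CHLA 05. HLA-F (24.9 to 53.3) and TAP2 (36.8 to 54.5) were the lowest, TAP2 below HLA-F in CHLA 02 and in the first CHLA 06 replicate. A lowest mean in CHLA 04 was found for 25.7% of all genes tested. This order was picked out after the values were seen. Without the second CHLA 04 replicate it held for 7 of the 9 genes, all but HLA-E and TAPBP, beside 29.1% of all genes. With the maximum of technical replicates, the study's own choice, it held for the same 7 genes, beside 19.8%. In bulk RNA, fewer cells expressing a gene and less RNA per cell cannot be told apart.

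B2M (ENSG00000166710, chromosome 15, 44711477 to 44718877) encodes the light chain shared by all class I molecules. Its level was 550.4 TPM in CHLA 02, 161 and 179 TPM in CHLA 04, 326 TPM in CHLA 05, and 693 and 519 TPM in CHLA 06. The CHLA 02 and CHLA 06 libraries were high, CHLA 05 was intermediate and CHLA 04 was low, a grouping made after the values were seen. The means were 170 ± 12.5 TPM (SD, n = 2 technical replicates) in CHLA 04 and 606 ± 123 TPM (SD, n = 2) in CHLA 06. CHLA 06 was thus higher by 1.83 on the log2(TPM + 1) scale, a 3.57-fold difference in TPM. The largest difference between technical replicates of a line was 0.42 on the same scale, so the step from CHLA 02 to CHLA 05 (0.75) and that from CHLA 05 to CHLA 04 (0.94) were larger than the replicate spread. CHLA 06 and CHLA 02 differed by 0.14, which was within it.

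HLA-C (ENSG00000204525), a classical heavy chain that also serves as the main ligand of killer cell immunoglobulin-like receptors, was at 430.0 TPM in CHLA 02. It was at 89.3 and 64.8 TPM in CHLA 04, 114 TPM in CHLA 05, and 611 and 464 TPM in CHLA 06. CHLA 02 and CHLA 06 stood far above the other lines. The CHLA 06 mean of 538 ± 104 TPM (SD, n = 2) was 6.98-fold the CHLA 04 mean of 77.1 ± 17.3 TPM (SD, n = 2). On the log2(TPM + 1) scale this difference was 2.79, and the largest among the 9 genes in any pair of lines. CHLA 02 exceeded CHLA 05 by 1.91 on that scale, against at most 0.46 between technical replicates, while CHLA 06 exceeded CHLA 02 by only 0.32.

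HLA-B (ENSG00000234745, chromosome 6, 31353872 to 31357188), the other classical heavy chain examined, had a different order. Its level was 103 TPM in CHLA 02, 31.3 and 23.1 TPM in CHLA 04, 54.0 TPM in CHLA 05, and 43.9 and 35.1 TPM in CHLA 06. CHLA 02 stood alone at the top, and both CHLA 06 libraries were below CHLA 05. CHLA 06, at 39.5 ± 6.21 TPM (SD, n = 2), was lower than CHLA 02 by 1.36 on the log2(TPM + 1) scale, and no other of the 9 genes differed 2-fold between these lines. The mean of CHLA 04 was 27.2 ± 5.83 TPM (SD, n = 2). All steps between neighbouring lines exceeded the largest replicate difference of 0.42, although CHLA 05 over CHLA 06 did so narrowly, at 0.44.

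HLA-E (ENSG00000204592, chromosome 6, 30489467 to 30494205) presents leader peptides of other class I chains to the NKG2A receptor of natural killer cells. It was at 82.1 TPM in CHLA 02, 50.9 and 33.6 TPM in CHLA 04, 43.5 TPM in CHLA 05, and 97.9 and 78.9 TPM in CHLA 06. Here CHLA 05 lay between the CHLA 04 replicates, and the 2 lines differed by 0.04 in log2(TPM + 1). CHLA 02 exceeded CHLA 05 by 0.90 on this scale, more than the replicate difference of 0.59 in CHLA 04.

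HLA-F (ENSG00000204642, chromosome 6, 29722775 to 29738528) is a nonclassical chain that can reach the surface without a peptide. At 12.4 TPM in CHLA 02, 1.69 and 2.09 TPM in CHLA 04, 4.21 TPM in CHLA 05 and 16.2 and 11.7 TPM in CHLA 06, it was the scarcest of the heavy chains in every library. Only 8 and 12 reads lay behind the CHLA 04 values. The 95% Wilson interval of the first was 0.858 to 3.34 TPM, that of CHLA 05 was 2.90 to 6.13 TPM, and such intervals cover counting error only. CHLA 06 was higher than CHLA 04 by 2.37 on the log2(TPM + 1) scale, or 7.38-fold in TPM, and it differed from CHLA 02 by 0.16, less than the 0.44 between its own replicates.

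TAP1 (ENSG00000168394, chromosome 6, 32845209 to 32853978) forms the peptide transporter with TAP2. Its level was 39.6 TPM in CHLA 02, 24.9 and 19.0 TPM in CHLA 04, 43.7 TPM in CHLA 05, and 57.9 and 45.7 TPM in CHLA 06. CHLA 04 was low, and the other 3 lines did not differ beyond the replicate spread between neighbours. CHLA 06 exceeded CHLA 04 by 1.20 in log2(TPM + 1).

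TAP2 (ENSG00000204267, chromosome 6, 32821833 to 32838780), its partner, was at 8.86 TPM in CHLA 02, 7.37 and 4.77 TPM in CHLA 04, 9.98 TPM in CHLA 05, and 15.6 TPM in both libraries of CHLA 06. CHLA 06 exceeded CHLA 05 by 0.59, slightly more than the largest replicate difference of 0.54 on the log2(TPM + 1) scale. CHLA 02 did not differ beyond that spread from CHLA 05 or from CHLA 04.

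TAPBP (ENSG00000231925, chromosome 6, 33299694 to 33314387) encodes tapasin. Its level was 133 TPM in CHLA 02, 135 and 68.6 TPM in CHLA 04, 123 TPM in CHLA 05, and 140 and 128 TPM in CHLA 06. The libraries overlapped across all lines except for the low second replicate of CHLA 04. The CHLA 04 replicates differed by 0.97 on the log2(TPM + 1) scale, and no pair of lines differed by more than 0.39.

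NLRC5 (ENSG00000140853, chromosome 16, 56989485 to 57083531), the class I transactivator, was at 26.0 TPM in CHLA 02, 10.9 and 8.49 TPM in CHLA 04, 11.1 TPM in CHLA 05, and 22.1 and 21.0 TPM in CHLA 06. CHLA 02 and CHLA 06 were thus at 21.0 TPM or more, and CHLA 04 and CHLA 05 at 11.1 TPM or less. Within each of these pairs the lines differed by 0.26 and 0.18 in log2(TPM + 1), less than the 0.32 between the CHLA 04 replicates. CHLA 06 exceeded CHLA 05 by 0.90. The value is a sum over 29 annotated transcripts, and the most abundant of them held 1.80% to 18.2% of it.

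**Figure D1:**
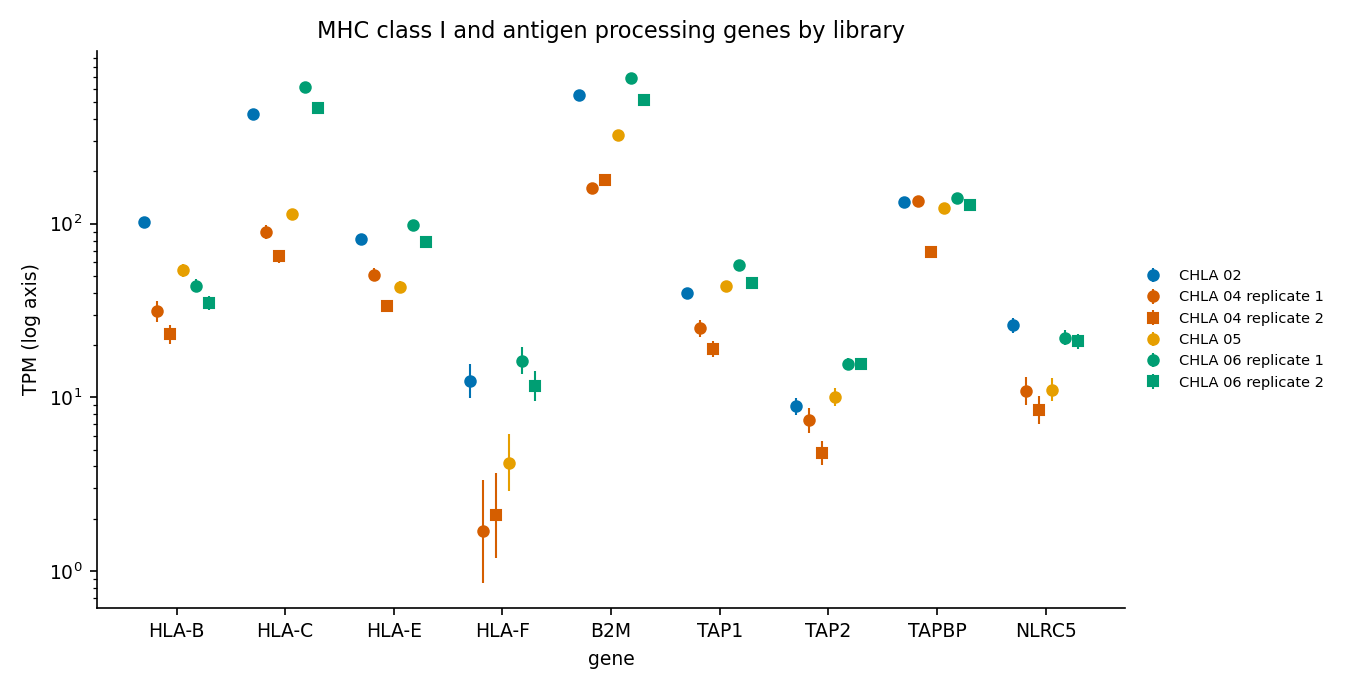
TPM (log axis) of the 9 genes in the 6 libraries, with 95% Wilson intervals of counting error as bars and squares for second technical replicates. The B2M points run from 161 to 693 TPM and those of HLA-F from 1.69 to 16.2 TPM, and only for HLA-E and TAPBP does a CHLA 04 replicate exceed a library of another line.

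Differences between lines were counted at 2-fold, a difference of at least 1 in log2(mean TPM + 1), and read beside the same count over all 16035 genes tested. CHLA 06 was higher than CHLA 04 for 7 of the 9 genes, all but HLA-B and TAPBP, and lower for none. Of all genes tested, 35.6% differed 2-fold between these lines, 14.5% being higher in CHLA 06 and 21.1% lower. With median-of-ratios scaling the same 7 genes passed, beside 17.7% of all genes higher and 17.0% lower. The median difference was 1.20 over the 9 genes and -0.21 over all genes. Without the second CHLA 04 replicate 4 genes remained (HLA-C, HLA-F, B2M and TAP1), with 39.9% of all genes past 2-fold.

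CHLA 02 was higher than CHLA 04 for 5 of the 9 genes, namely B2M, HLA-B, HLA-C, HLA-F and NLRC5, and lower for none. Over all genes 21.7% differed and 10.7% were higher in CHLA 02. The median of CHLA 04 minus CHLA 02 was -1.34 over the 9 genes and 0.15 over all genes. HLA-C, HLA-F and NLRC5 were 2-fold higher in CHLA 02 than in CHLA 05, a comparison in which 24.8% of all genes differed and 11.5% were higher in CHLA 02. CHLA 06 was 2-fold higher than CHLA 05 for HLA-C, HLA-E and HLA-F, with 31.3% of all genes past the threshold and 11.7% in this direction. HLA-E passed by a small margin, at 1.01, and without the first CHLA 06 replicate it passed neither here nor against CHLA 04.

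Between CHLA 06 and CHLA 02, 1 of the 9 genes differed 2-fold (HLA-B), near the 12.6% of all genes. None differed 2-fold between CHLA 05 and CHLA 04, where 21.6% of all genes did, although HLA-B and TAP1 reached 0.96 and B2M 0.94. Without the first CHLA 04 replicate HLA-B and TAP1 passed, beside 20.0% of all genes, and without the second B2M did, beside 26.8%. Between technical replicates none of the 9 genes differed 2-fold, against 6.17% of all genes in CHLA 04 and 1.61% in CHLA 06. The first replicate was nevertheless the higher one for 7 of the 9 genes in CHLA 04 and for 8 in CHLA 06, with medians of 0.42 and 0.31 on the log2 scale against 0.03 and -0.004 over all genes. The comparisons share libraries and are therefore not independent of each other.

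**Figure D2:**
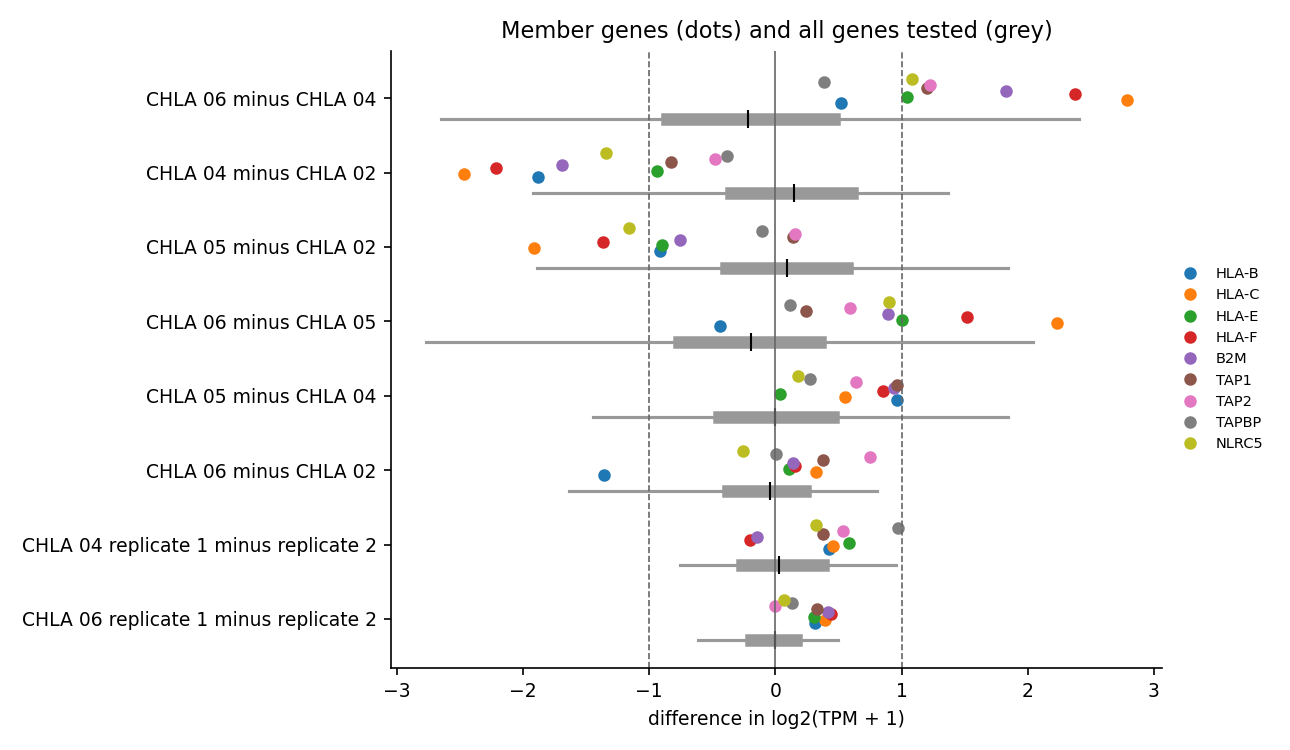
Differences in log2(TPM + 1) for 6 pairs of lines and 2 pairs of technical replicates, with a dot for each of the 9 genes, and in grey the middle 50% (thick) and 90% (thin) of all 16035 genes with their median as a black tick. For CHLA 06 minus CHLA 04 the dots lie between 0.39 and 2.79 while the median of all genes is -0.21, and between technical replicates every dot lies within the dashed 2-fold lines.

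Heavy chain and B2M proteins pair 1 to 1, so the ratio of their RNA was followed through the libraries. B2M also serves class I chains outside the sum used here, so the ratio compares a part of the heavy chains with their shared partner. The summed level of HLA-B, HLA-C, HLA-E and HLA-F was 1.14 times that of B2M in CHLA 02 and 1.11 and 1.14 times in CHLA 06. In CHLA 05 it was 0.660 times, and in CHLA 04 the replicates gave 1.08 and 0.692. The CHLA 04 replicates thus spanned nearly the whole range of the ratio. HLA-C made up 68.5% of the heavy chain sum in CHLA 02 and 79.5% and 78.7% in the replicates of CHLA 06. In the replicates of CHLA 04 it made up 51.5% and 52.4%, and in CHLA 05 it made up 52.7%. This share separated CHLA 06 and CHLA 02 from each other and from the remaining lines by more than the replicates differed. The ratio of HLA-C to HLA-B was 13.9 and 13.2 in the replicates of CHLA 06, against 4.18 in CHLA 02, 2.10 in CHLA 05 and 2.85 and 2.81 in the replicates of CHLA 04. TAP1 was 2.93 to 4.47 times TAP2 in every library, and the CHLA 06 replicates alone gave 3.72 and 2.93.

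How reads were divided among class I genes limits the heavy chain values. In the annotation that the authors used, HLA-C spans chromosome 6 from 31268749 to 31357158, because the transcript ENST00000620806 joins HLA-C exons to exons inside HLA-B, with 343 of its 975 bases in the HLA-B span. It carried 27.1% of the HLA-C level in CHLA 02 and 31.8% in CHLA 05. Its share was larger in the replicates of CHLA 04, at 39.1% and 31.0%, than in those of CHLA 06, at 17.1% and 15.8%. Of the 125-base windows of the main HLA-B transcript, 16.7% occur exactly in an HLA-C transcript, and reads from them could be counted to either gene. No such window of the main HLA-C, HLA-E and HLA-F transcripts occurs in another gene of the region. Of their 50-base windows, however, 6.78% for HLA-C, 4.66% for HLA-E and 2.08% for HLA-F occur in another gene. The main transcripts held only 7.41% to 36.0% of the HLA-C level and 5.78% to 21.9% of the HLA-F level. Windows of the other transcripts were not examined. Without the joined transcript, the HLA-C level was 313 TPM in CHLA 02, 54.4 and 44.7 TPM in CHLA 04, 77.4 TPM in CHLA 05, and 506 and 390.5 TPM in CHLA 06, with the same lines high and low.

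Among the HLA-C transcripts, which partly share exons, ENST00000376237 with 8 exons led in CHLA 06, at 212 and 167 TPM. It was at 39.3 TPM in CHLA 02, 9.53 and 4.80 TPM in CHLA 04 and 13.9 TPM in CHLA 05. The 8-exon transcript ENST00000383329 was instead at 30.5 TPM in CHLA 05 and at 7.23 and 6.78 TPM in CHLA 06. The lines therefore differed in which annotated 8-exon form was credited with reads. Cell lines can carry class I sequences that differ from the reference, and the part of such differences in the assignment of reads was not tested.

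**Figure D3:**
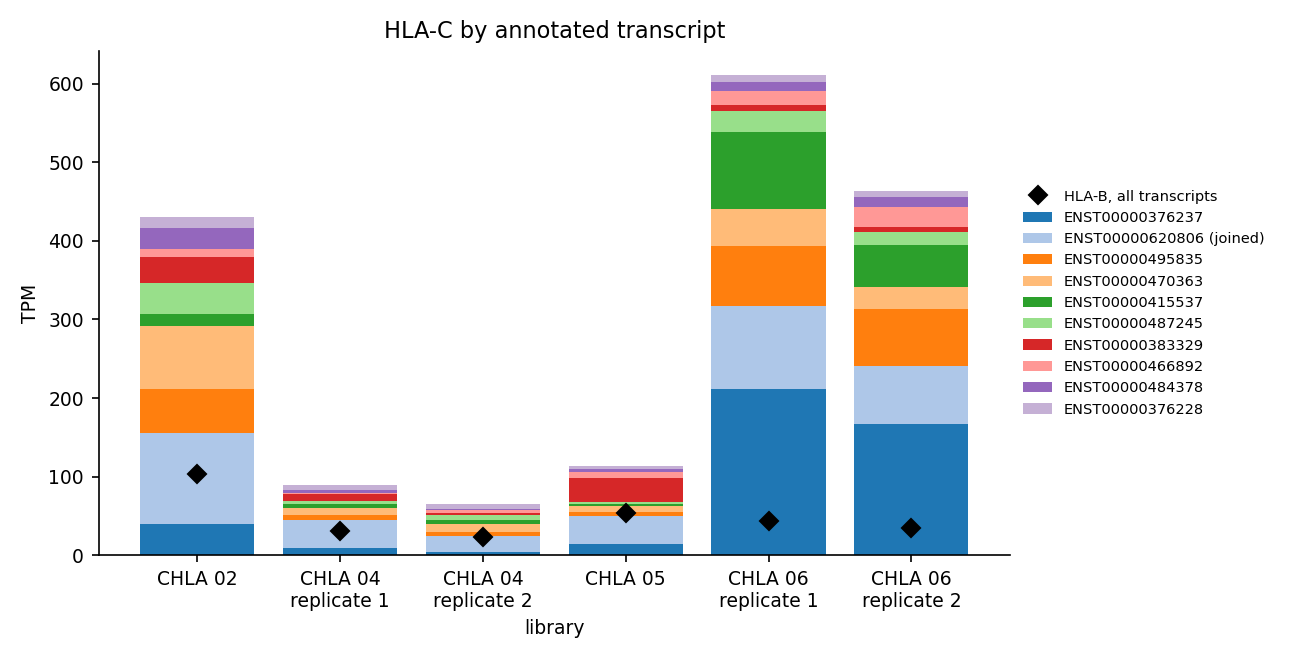
Stacked TPM of the 10 annotated HLA-C transcripts in each library, with the summed TPM of HLA-B as black diamonds. The darker blue segment, ENST00000376237, reaches 212 and 167 TPM in CHLA 06, and the light blue segment is the transcript that joins HLA-B exons.

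Other genes of the pathway were counted from lists. Of 83 gene identifiers in 7 lists, 64 had at least 1 TPM in a line, and 23 of these (35.9%) differed 2-fold in at least 1 of the 6 pairs of lines, against 51.3% of all genes tested. This pooled share was lowered by the constitutive proteasome list, with 0 of 17, and the lists differed widely. The counts were 3 of 6 for peptide loading, 2 of 6 for the immunoproteasome and 1 of 8 for SXY factors. They were 7 of 14 for interferon and NF-κB inputs, 6 of 9 for other class I genes and 4 of 4 for class II.

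In peptide loading and trimming, 3 of 6 genes were 2-fold higher in CHLA 06 than in CHLA 04 and none was lower, with a median log2 difference of 0.96. Of all genes tested, 14.5% were higher and 21.1% lower in CHLA 06. ERAP2, an aminopeptidase that trims peptides to their final length, was at 32.7 TPM in CHLA 02, 9.24 and 4.90 TPM in CHLA 04, 4.27 TPM in CHLA 05, and 40.7 and 36.9 TPM in CHLA 06. It was thus high in the same 2 lines as HLA-C. PDIA3, a disulfide isomerase of the loading complex, differed between CHLA 06 and CHLA 04 by 1.08 on the log2 scale and TAPBPL, a tapasin relative, was at 1.10 and 0.443 TPM in CHLA 04 against 4.78 and 1.93 TPM in CHLA 06. The chaperone CALR, the most abundant of the list, was at 792 to 1399 TPM and did not differ 2-fold.

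Of the immunoproteasome and its activator, 2 of 6 genes passed in some pair. PSMB9, the catalytic subunit whose gene starts next to TAP1, was at 34.7 TPM in CHLA 02, 5.37 and 3.19 TPM in CHLA 04, 13.9 TPM in CHLA 05, and 35.8 and 24.5 TPM in CHLA 06. It was again high in CHLA 02 and CHLA 06 and low in CHLA 04. TAP1 was 1.14 times PSMB9 in CHLA 02, 4.64 and 5.95 times in CHLA 04, 3.14 times in CHLA 05, and 1.62 and 1.86 times in CHLA 06, so the neighbours did not keep one ratio. The spans of both genes overlap in the files, and whether counting used strand is not given in the sources used here. PSMB8, another catalytic subunit, was low throughout, at 0.236 to 2.43 TPM, and the activator subunit PSME2 was at 116 to 242 TPM. Among the constitutive proteasome genes 0 of 17 identifiers differed 2-fold in any pair, and the most abundant, PSMA7, was at 249.4 to 372.0 TPM.

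The factors that bind the SXY module differed little. Of 8 genes, ATF1 alone passed, at 27.9 TPM in CHLA 02, 13.1 and 16.0 TPM in CHLA 04, 24.0 TPM in CHLA 05, and 38.0 and 37.6 TPM in CHLA 06. RFXANK, a subunit of the RFX complex and the most abundant of the list, was at 80.1 to 129 TPM.

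Interferon and NF-κB inputs differed in both directions. Of 14 genes with at least 1 TPM in a line, 3 were 2-fold higher in CHLA 06 than in CHLA 04 and 1 (STAT2) was lower, with a median log2 difference of 0.32. Over all genes tested, 14.5% were higher and 21.1% lower in this comparison, so these few counts do not set the list apart. The receptor chain IFNGR2 was at 150 TPM in CHLA 02, 31.5 and 44.6 TPM in CHLA 04, 58.8 TPM in CHLA 05, and 130.0 and 130.3 TPM in CHLA 06. IFNAR2, a chain of the type I interferon receptor, was at 41.6 TPM in CHLA 02, 12.8 and 18.5 TPM in CHLA 04, 31.1 TPM in CHLA 05, and 56.3 and 47.8 TPM in CHLA 06. Both receptor chains were lowest in CHLA 04, whereas IRF9 was not. IRF9, a DNA-binding subunit of the factor that interferon activates, was at 29.0 TPM in CHLA 02, 56.2 and 52.8 TPM in CHLA 04, 8.94 TPM in CHLA 05, and 32.0 and 23.3 TPM in CHLA 06. CHLA 04, the line with the least class I RNA, therefore had the highest IRF9. The kinase TYK2, the most abundant of the list, was at 111 to 179 TPM and did not differ 2-fold in any pair. SOCS1, an inhibitor of JAK signalling, was at 2.12 and 2.48 TPM in CHLA 04 and at 7.80 to 13.5 TPM in the other lines.

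Other class I and class I-like genes had mixed patterns. Of 9 with at least 1 TPM in a line, 3 were 2-fold higher in CHLA 06 than in CHLA 04 and 1 was lower, with a median log2 difference of 0.003. The shares over all genes tested were 14.5% higher and 21.1% lower. MR1, which presents vitamin B metabolites to mucosal-associated invariant T cells, was at 25.1 TPM in CHLA 02, 1.26 and 0.337 TPM in CHLA 04, 5.30 TPM in CHLA 05, and 39.4 and 32.5 TPM in CHLA 06. MICB, a stress ligand of the activating receptor NKG2D, went the other way, at 45.8 TPM in CHLA 02, 69.4 and 91.9 TPM in CHLA 04, 71.9 TPM in CHLA 05, and 9.12 and 15.9 TPM in CHLA 06. ULBP3, a further NKG2D ligand, was at 7.82 and 7.19 TPM in CHLA 04 and at 20.3 and 17.5 TPM in CHLA 06. ULBP1, of the same family, had 0 reads in both CHLA 04 libraries and 74 and 100 reads in those of CHLA 06. MICA and ULBP2, further NKG2D ligands of the list, did not differ 2-fold between CHLA 06 and CHLA 04. MICA was at 32.0 and 29.4 TPM in CHLA 04 and at 21.9 TPM in both libraries of CHLA 06. ULBP2 was at 0.526 and 1.07 TPM in CHLA 04 and at 0.479 and 1.13 TPM in CHLA 06. The NKG2D ligands thus had no common direction.

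Class II genes were scarce. Of 13, 4 reached 1 TPM in a line, as did 16035 of all 36532 genes, so the low levels rather than this count set the list apart. HLA-DMA and HLA-DMB, whose products edit class II peptides, were at no more than 6.62 and 4.90 TPM. HLA-DPA1 was at most 2.24 TPM and HLA-DQB1 at most 2.03 TPM. The summed level of the list was 13.2 TPM in CHLA 02, 3.33 and 2.13 TPM in CHLA 04, 7.95 TPM in CHLA 05, and 15.8 and 11.7 TPM in CHLA 06. CIITA, the class II counterpart of NLRC5, was listed at 0 in all libraries but 1, where it was at 0.025 TPM. In the same libraries NLRC5 was at 8.49 to 26.0 TPM.

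**Figure D4:**
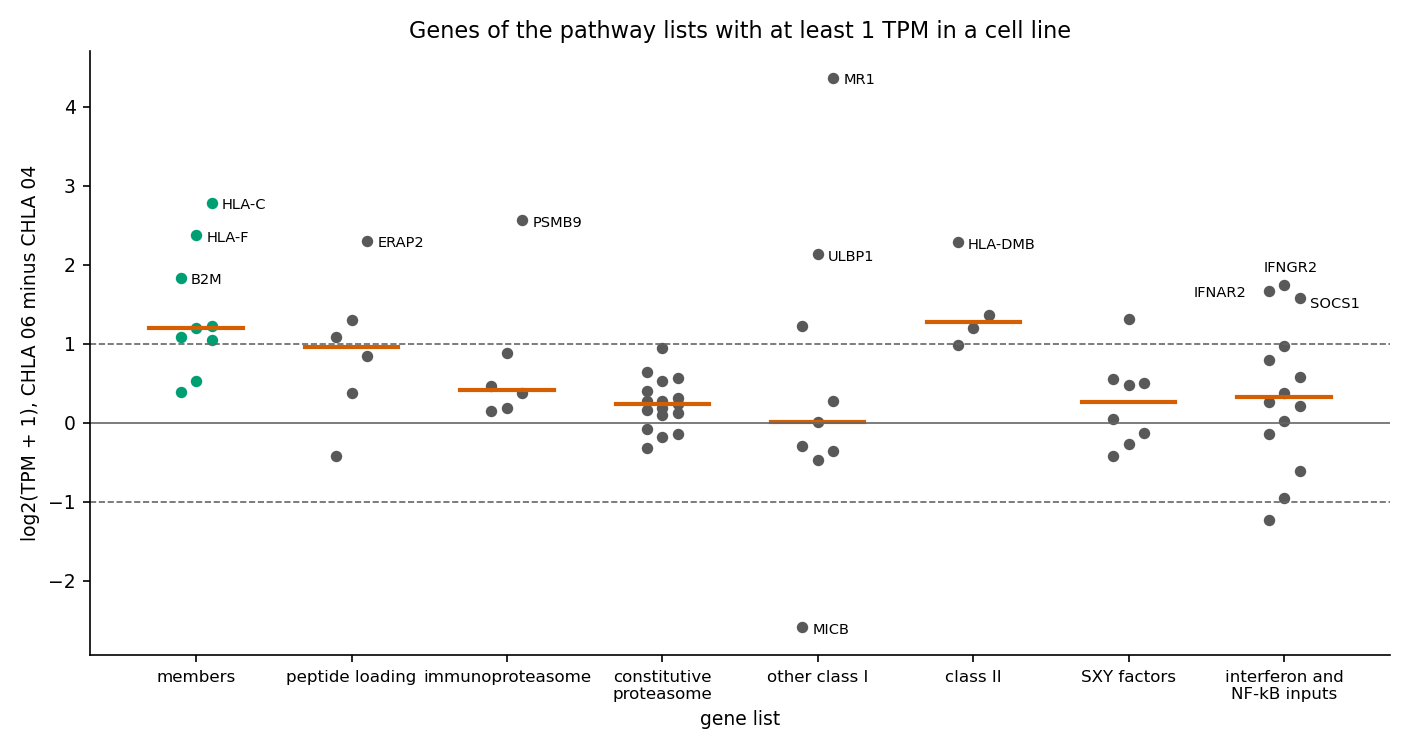
Differences in log2(TPM + 1) between CHLA 06 and CHLA 04 for the 9 genes (green) and the 7 lists (grey), with medians in orange and dashed lines at 2-fold. The medians are 1.20 for the 9 genes, 0.96 for peptide loading, 0.24 for the constitutive proteasome and 0.32 for interferon and NF-κB inputs, and MR1 and MICB lie at the ends, at 4.36 and -2.59.

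Markers of other cell types varied with these values in part. The 5 fibroblast markers summed to 418 TPM in CHLA 02, 21.1 and 13.3 TPM in CHLA 04, 42.2 TPM in CHLA 05, and 649 and 494 TPM in CHLA 06. COL1A1 made up most of this, at 387 TPM in CHLA 02, 600.3 and 459 TPM in CHLA 06 and no more than 11.5 TPM elsewhere, and DCN was high in the same lines. COL1A2 and PDGFRB were instead higher in CHLA 05 than in CHLA 02 and CHLA 06. VIM was at 13742 TPM in CHLA 02, 4629 and 4990 TPM in CHLA 04, 8430 TPM in CHLA 05, and 19464 and 14708 TPM in CHLA 06. The leukocyte list summed to 1.61 to 27.9 TPM, its highest value being in the second CHLA 06 replicate with CD68 at 22.6 TPM. That replicate had the larger leukocyte sum of its line (27.9 against 11.1 TPM) and the lower level of 8 of the 9 genes, all but TAP2. Endothelial markers summed to 0.159 to 4.99 TPM, with PECAM1 and CDH5 at no more than 0.0793 TPM. The part of these markers in the class I values was not tested.

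The genes whose pattern over the 4 line means was most like that of the 9 genes were RPS25, MLKL, ENDOD1, ADAMTSL4 and F2RL1, with Pearson's r of 0.999 or more over 4 lines. RPS25, a ribosomal protein gene, was at 959 TPM in CHLA 02, 362 TPM in CHLA 04, 575 TPM in CHLA 05 and 979 TPM in CHLA 06, as line means. In the same order of lines MLKL, the effector of necroptosis, was at 7.78, 0.544, 2.44 and 7.59 TPM, and F2RL1, a protease-activated receptor gene, at 139, 14.2, 37.6 and 159.6 TPM. ADAMTSL4, a gene of a secreted microfibril protein, was at 122, 0.0446, 6.79 and 107 TPM, and ENDOD1 at 48.3, 2.34, 8.83 and 49.9 TPM. All 5 were lowest in CHLA 04, next in CHLA 05, and highest in CHLA 02 or CHLA 06. Of the 6341 genes ranked, 7.63% had r above 0.95, so a close match over 4 points was common, and the points share libraries and depth.

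LTR elements, remnants of endogenous retroviruses whose expression the study examined, were looked for within 10 kb of the 9 genes. Of 95 such elements, 19 had a read in any library, 5 reached 10 reads in a library, and none was HML-2. HLA-C had 44 elements in reach, counted from a span that the joined transcript stretches into HLA-B. Elements far from the other HLA-C transcripts are therefore included. TAP1 and TAPBP had no element in reach, and the 5 elements near TAP2 had no reads. The 2 elements with the most reads, MST-int (chromosome 6, 30493707 to 30494073) and MSTC (30493514 to 30493719), lie on the same strand inside the last exon of HLA-E, which runs from 30492749 to 30494205. MST-int was at 566 TPM in CHLA 02, 258 and 220 TPM in CHLA 04, 285 TPM in CHLA 05, and 715 and 546 TPM in CHLA 06, on a scale of LTR elements only. It was high in the lines in which HLA-E was high. The elements lie inside this exon and the same libraries were mapped a second time, so their values are no independent measure. The reads came to 91 to 374 per library on both elements, 0.0256% to 0.0834% of all LTR reads.

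The remaining elements were much weaker. MLT2B3, inside the HLA-F span on the opposite strand, had 20 and 18 reads in CHLA 06, 6 each in CHLA 02 and CHLA 05 and 0 in CHLA 04. MLT1C, inside NLRC5 and overlapping an exon of it, had 12 and 11 reads in CHLA 06 and 9 in CHLA 02, against 0 and 4 in CHLA 04 and 3 in CHLA 05. LTR84a, beyond the end of HLA-F, had 21 and 14 reads in CHLA 06 and at most 2 elsewhere. With so few reads, differences among the other lines were not detectable at this depth.

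**Figure D5:**
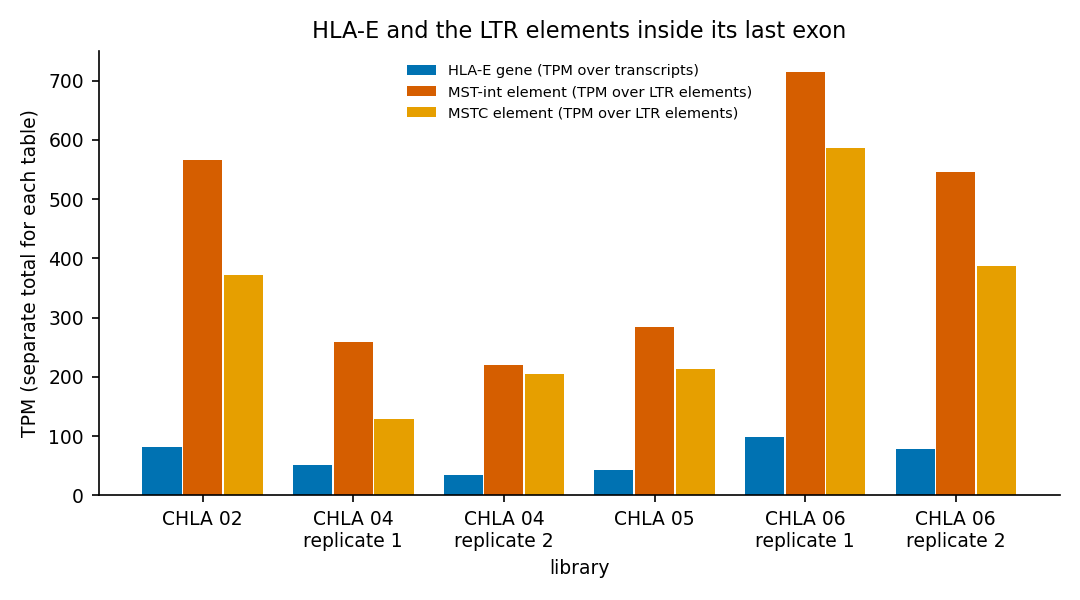
TPM of HLA-E (scaled over transcripts) and of the MST-int and MSTC elements inside its last exon (scaled over LTR elements) by library, on 1 axis but from 2 tables with separate totals, so that bar heights compare only within a colour. HLA-E runs from 33.6 to 97.9 TPM and MST-int from 220 to 715 TPM, both highest in the first CHLA 06 replicate and lowest in the second CHLA 04 replicate.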

How the data were processed

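Per the study's methods, total RNA was made into stranded libraries and sequenced as paired reads of 125 bases. After trimming in Trimmomatic, the authors ran the CLCbio Genomics Workbench at default settings against GRCh38 and its Ensembl transcripts, and deposited TPM for 173113 transcripts and, from a second mapping, for 720177 LTR elements. CASAVA 1.8.2 is named in the submitters' processing notes. How multiply mapped reads were assigned is not given in the sources used here, and near-identical HLA genes are affected by it.

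Gene TPM was the sum over transcripts of an identifier, and technical replicates were averaged. The study instead kept the higher value of technical replicates, after its own normalization. Reads were recovered from the steps in TPM times length; at least 99.8% of values were whole within 0.1. The recovery and the 2-fold call were tested on simulated data. Differences are of log2(mean TPM + 1) for genes with at least 1 TPM in a line. Values of single libraries have 95% Wilson intervals. Promoters came from RefSeq (GRCh38.p14), and genome sequence was read on GRCh38. Python 3.11.15, pandas 2.3.3 and scipy 1.17.1 were used.

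The genes, the lists and the rules were chosen with earlier results of these data known. Genes were named by a rule: all 9 genes, of each list at most 4 genes with the largest range among those past 2-fold and the most abundant gene, the 5 genes most like the 9 (among genes with at least 5 TPM in a line and a 2-fold range), and the LTR elements with the most reads. STAT2, CIITA, CD3E, AIF1, PTPRC, PECAM1, CDH5, MICA, ULBP2 and NES were named after their values were seen. A further class I gene and an interferon signalling gene of the lists are not reported here. Alternatives were other scalings, pseudocounts, filters and thresholds, the most abundant transcript, the maximum of replicates, and each replicate left out.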

Additional observations from a re-analysis of the deposited data

How the results depend on the processing

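No paired analysis was possible because each line had 1 biological sample and no result came from a test. The spread between cultures of a line was not measured, and HLA-F in CHLA 04 rests on 8 and 12 reads. Of 270 values (18 gene differences under 15 alternatives), 260 moved by less than 1 SD of the replicates and none of at least 2-fold reversed. Many of these values could not move. Thresholds and filters on low values leave a difference unchanged, and dropping the joined transcript alters HLA-C alone. Replicate settings cannot alter CHLA 02 minus CHLA 05, whose lines had no replicate. The count of 260 is therefore no measure of robustness. The sign changed in some setting for TAP2 (CHLA 02 minus CHLA 05) and TAPBP (CHLA 06 minus CHLA 04). Median-of-ratios scaling moved the median of all genes for CHLA 06 minus CHLA 04 from -0.21 to -0.004. Before and after it 7 of the 9 genes passed, beside 35.6% and 34.6% of all genes. The causes of the changes that follow were not tested unless the setting itself shows them.

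Percentages in brackets are shares of all genes tested in the same setting. With the maximum of replicates, 4 genes differed between CHLA 06 and CHLA 04 (37.5%) in place of 7 (35.6%). With each replicate left out there were 4 to 7 (33.5% to 39.9%), and at 3-fold 3 (20.1%). Between CHLA 05 and CHLA 04 the count of 0 (21.6%) became 1 under median-of-ratios scaling (21.1%) or quantile normalization (21.4%). It was also 1 with the most abundant transcript (23.8%) or a pseudocount of 0.1 (28.3%). At 1.5-fold it was 5 (39.9%), and with a replicate left out 0 to 2 (20.0% to 26.8%). Between CHLA 05 and CHLA 02 the 3 genes (24.8%) became 5 under quantile normalization (24.5%), 6 at 1.5-fold (43.6%) and 1 at 3-fold (12.9%). Between CHLA 06 and CHLA 02 the 1 gene (12.6%) became 2 with the most abundant transcript (13.8%) or quantile normalization (13.0%). It became 2 at 1.5-fold (26.5%) and 0 at 3-fold (5.86%). Between CHLA 06 and CHLA 05 the 3 genes (31.3%) became 5 under median-of-ratios scaling (30.7%), 6 at 1.5-fold (49.4%) and 1 at 3-fold (18.1%). Of the lists, 41 genes passed at 1.5-fold and 14 at 3-fold in place of 23. No share of all genes in any pair stands beside these counts at 1.5-fold and 3-fold. They are therefore not read as a result about the lists. The HLA-C to HLA-B ratio differed between CHLA 06 and CHLA 05 by 2.70 on the log2 scale, by 4.19 with the most abundant transcripts, by 2.56 after quantile normalization, and by 2.99 without the joined transcript, an alternative added after seeing the data.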
